A study of Homo sapiens with 18 samples.

Results

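The difference between the responses of NF1 mutant and parental NCI-H2052 cells to VT107 was measured from 12 of the 18 RNA-seq libraries of the study, which were all the libraries of H2052 cells. They fell into 4 groups of 3 libraries: parental cells given DMSO, parental cells given VT107, NF1 mutant cells given DMSO and NF1 mutant cells given VT107. VT107 was used at 1 µM for 24 h, and DMSO is its solvent. For each gene the quantity of interest was the log2 fold change between VT107 and DMSO in NF1 mutant cells minus that in parental cells. It is called the interaction here, and a positive value means that expression with VT107, relative to DMSO, was higher in the mutant cells. The study asked how loss of NF1 alters the transcriptional response of mesothelioma cells to TEAD inhibition.

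TEAD1 to TEAD4 are DNA-binding proteins that recruit the coactivators YAP and TAZ, the factors that the Hippo pathway kinases keep out of the nucleus. TEAD proteins carry a palmitate group that they attach to themselves, and VT107 is a small molecule that blocks this palmitoylation. NF1 encodes neurofibromin, a GTPase-activating protein that switches RAS off, so that its loss raises signalling through RAF, MEK and ERK (the MAPK pathway). AP-1 factors, which lie downstream of this pathway, share many enhancers with TEADs.

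H2052 is an established line from a pleural mesothelioma and carries mutations of NF2 and LATS2, which are upstream brakes on YAP and TAZ, so that parental and NF1 mutant cells both lack them. The NF1 mutant cells were made with Cas9 and a guide RNA delivered by lentivirus and drug selection. Whether they were a pool or a clone, and which guide they carried, is not given in the sources used here. Parental and NF1 mutant libraries carry different name prefixes and came from different depth ranges. NF1 genotype and library set thus cannot be told apart, either in a baseline comparison or in the interaction. The study called the 3 libraries of a group biological replicates.

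Promoter sequences are shown for the genes on which the results turn, from 250 bases before to 50 after the start site (RefSeq, GRCh38.p14). CTGF and ANKRD1 fell with VT107 in both genotypes, while HIF1A and DHCR7 had the smallest p-values of the interaction in each direction among genes with a mean log2 CPM of at least 3. Capitals mark GGAATG or its reverse complement, the core of the motif that TEADs bind, and TGANTCA, the AP-1 motif, whose pattern is the same on both strands.

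CTGF, chr6:131951323-131951622, minus strand: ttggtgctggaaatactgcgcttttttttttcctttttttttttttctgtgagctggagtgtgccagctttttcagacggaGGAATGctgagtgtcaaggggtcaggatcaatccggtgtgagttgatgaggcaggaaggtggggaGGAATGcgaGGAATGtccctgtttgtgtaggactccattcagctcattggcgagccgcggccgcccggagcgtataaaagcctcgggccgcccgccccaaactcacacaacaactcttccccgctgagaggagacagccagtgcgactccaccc
ANKRD1, chr10:90921038-90921337, minus strand: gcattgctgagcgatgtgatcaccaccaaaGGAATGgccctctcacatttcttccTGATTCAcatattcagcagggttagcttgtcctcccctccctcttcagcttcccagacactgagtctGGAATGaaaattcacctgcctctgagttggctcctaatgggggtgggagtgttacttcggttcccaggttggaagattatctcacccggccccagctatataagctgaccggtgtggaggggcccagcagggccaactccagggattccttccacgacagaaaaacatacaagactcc
HIF1A, chr14:61695263-61695562, plus strand: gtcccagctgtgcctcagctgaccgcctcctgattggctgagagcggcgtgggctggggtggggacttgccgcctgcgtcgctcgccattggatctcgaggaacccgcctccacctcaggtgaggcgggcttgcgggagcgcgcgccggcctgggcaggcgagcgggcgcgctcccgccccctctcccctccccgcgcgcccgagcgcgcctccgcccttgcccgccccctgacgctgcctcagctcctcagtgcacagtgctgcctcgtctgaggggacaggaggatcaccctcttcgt
DHCR7, chr11:71448344-71448643, minus strand: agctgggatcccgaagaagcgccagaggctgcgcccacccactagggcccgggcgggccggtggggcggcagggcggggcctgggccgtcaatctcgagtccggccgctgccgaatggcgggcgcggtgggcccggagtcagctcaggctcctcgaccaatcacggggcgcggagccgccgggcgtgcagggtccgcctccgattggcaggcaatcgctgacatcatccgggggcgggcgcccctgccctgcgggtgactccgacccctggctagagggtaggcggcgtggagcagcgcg

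CTGF held 3 TEAD motifs, with first bases 169, 104 and 95 bases before the start site. ANKRD1 held 2, at 220 and 128 bases before it, and 1 AP-1 motif at 195 bases before it. Neither motif was in the windows of HIF1A and DHCR7. Both motifs were also absent for IGFBP3, SNAPC1 and AMOTL2, which fell in both genotypes, and for FJX1, which fell in parental cells. WTIP, which fell in mutant cells, held 3 TEAD motifs. Of the 22 YAP/TAZ-TEAD targets listed for this work, 16 had a promoter entry and 7 of those (43.8%) held a TEAD motif. Among all 27305 promoters given by RefSeq 14% did, and among the 8893 promoters matched to genes tested 10.6% did. AP-1 motifs were in 2 of the 16 target promoters (12.5%), in 7.76% of all promoters and in 4.3% of those of genes tested. CYR61, NPPB, C3, TEAD1, ARHGEF17 and KIRREL had no entry.

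Parental libraries held 10950284 to 13418485 counts each, and NF1 mutant libraries 3285363 to 5489092. Replicate 1 of the VT107-treated NF1 mutant cells stood apart from its group. The SD over genes of its log2 difference from the group's other libraries was 1.405 and 1.317, against 0.459 between those, and its 100 most abundant genes took 35.2% of its counts. Those of parental VT107 replicate 2 took 35.9%, and those of the other 10 libraries 28% to 29.7%. Both parental libraries numbered 3 differed from numbers 1 and 2 of their treatment by SDs of 0.638 to 0.811. For these reasons 3 fits were made. They used all 12 libraries, the 11 libraries without that VT107 replicate, and these 11 with the replicate number as a block in parental cells. Deviations of same-numbered parental libraries correlated at 0.654, 0.532 and 0.822, but numbers 1 and 2 also correlated with each other, at 0.552 and 0.642. Only number 3 thus stood apart in this check. The block still gave each parental number its own level, and a block for number 3 alone was an alternative. The blocked fit was added after the data were seen. Of the mesothelial markers, WT1 was at 18.6 to 49 CPM (counts as a share of the library total after TMM scaling, times 1000000) and MSLN at 13.1 to 71.4 CPM. CALB2 reached at most 8.29 CPM and UPK3B 1.47 CPM, and KRT5 was at 0 in all libraries. KRT7 stood at 37.1 to 278 CPM, KRT8 at 300 to 506, KRT18 at 624 to 1780, KRT19 at 1080 to 5340 and PDPN at 21 to 38.7 CPM. Among leukocyte markers CD68 stood at 2.4 to 26.3 CPM and CD74 at 0.361 to 6.84 CPM. CD3E and CD2 were at 0, PTPRC reached at most 0.271 CPM and the other leukocyte markers at most 0.882 CPM. Endothelial markers with a row reached at most 0.873 CPM.

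NF1 itself (ENSG00000196712, hg19 chr17:29421945-29708905) was read first as a check of the labels. In parental DMSO libraries 1, 2 and 3 it stood at 68.3, 62.9 and 34.0 CPM, and in parental VT107 libraries at 61.0, 55.8 and 26.3 CPM. In NF1 mutant cells it stood at 12.6, 17.0 and 17.9 CPM in DMSO and at 8.28, 18.2 and 16.2 CPM in VT107. Every mutant library was below every parental library. The mutant level in DMSO was lower by a log2 fold change of -1.80 (SE 0.40, adjusted p = 0.0159, edgeR's quasi-likelihood test with Benjamini-Hochberg adjustment). Leaving out 1 of 5 of the 6 DMSO libraries in turn raised this adjusted p to between 0.0591 and 0.0935. By the same test 963 of 11432 genes were called between the genotypes in DMSO, 735 of them lower in mutant cells. A lower level in this comparison was thus not particular to NF1. EVI2A and EVI2B lie within an NF1 intron on the other strand and had 916 counts in all against 4316 for NF1. The NF1 interaction was 0.06 (95% confidence interval -1.13 to 1.26), and was not called.

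No gene passed an adjusted p of 0.05 for the interaction. Over all 12 libraries 0 of 11432 genes tested (0%) were called by edgeR, and 78 (0.682%) had an unadjusted p under 0.05, 53 with a higher and 25 with a lower response in mutant cells. DESeq2 also called 0 genes, with 112 at an unadjusted p under 0.05, and limma-voom called 0 with 70. Without VT107 replicate 1 of the mutant cells, 0 of 12167 genes (0%) were called and 124 (1.02%) had an unadjusted p under 0.05. With the replicate block in parental cells added, 0 were called (0%) and 468 (3.85%) had an unadjusted p under 0.05. The smallest adjusted p was 1, 1 and 0.465 in these 3 fits. None of the 35 alternatives called a gene either.

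The width of the intervals limits what a missed threshold can show. The median half-width of the 95% interval of the interaction was 1.066 on the log2 scale over 12 libraries, 0.836 over 11 libraries and 0.548 with the block. A half-width under 1 was reached for 43.3%, 65% and 85.9% of genes.

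Each genotype's own response depended strongly on these choices. In parental cells 0 genes (0%) were called over 12 libraries, 3 (0.0247%) over 11 libraries and 491 (4.04%) with the block. In NF1 mutant cells 3 genes (0.0262%) were called over 12 libraries, 3 (0.0247%) over 11 libraries and 198 (1.63%) with the block. Over 12 libraries the 3 genes of the mutant cells were HIF1A, which rose, and SNAPC1 and KAAG1, which fell. KAAG1 is named only for this count, after its values were seen. Over 11 libraries IGFBP3 and CTGF fell in both genotypes, SNAPC1 fell in parental cells (in mutant cells its adjusted p was 0.0824), and HIF1A rose in mutant cells.

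The parental total of 491 against 198 did not come with equal libraries. With every library thinned at random to the smallest total, the same fit called 263 genes in parental cells and 227 in mutant cells. With the same replicate and both parental libraries numbered 3 left out, and without the block, 86 genes were called in parental cells and 303 in mutant cells. The parental total was thus higher at full and at equal depth, and lower in the fit that left out both libraries numbered 3 and the block.

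Responses of both genotypes were alike in direction among the genes called in the blocked fit. Of the 491 parental genes, 214 rose (1.76%) and 277 fell (2.28%). Of the 214 that rose, 210 (98.1%) also had a positive fold change in mutant cells, against 50.5% of all genes, and 78 (36.4%) were called higher there too. Of the 277 that fell, 266 (96%) had a negative fold change in mutant cells, against 49.5% of all genes, and 61 (22%) were called lower there too. No gene was called in opposite directions. The median log2 fold change of the genes that rose was 0.75 in parental and 0.715 in mutant cells, and that of the genes that fell was -0.625 and -0.458. A smaller size is favoured by choosing genes in the other genotype, and it was seen in both ways of choosing. The 111 genes that rose in mutant cells (0.912%) had a median of 0.957 there and 0.622 in parental cells, and the 87 that fell (0.715%) had -0.869 and -0.671. Across all genes, which are not independent replicates, the 2 responses had a Pearson r of 0.498 over 12 libraries, 0.53 over 11 and 0.536 with the block. The responses share no library.

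**Figure D1:**
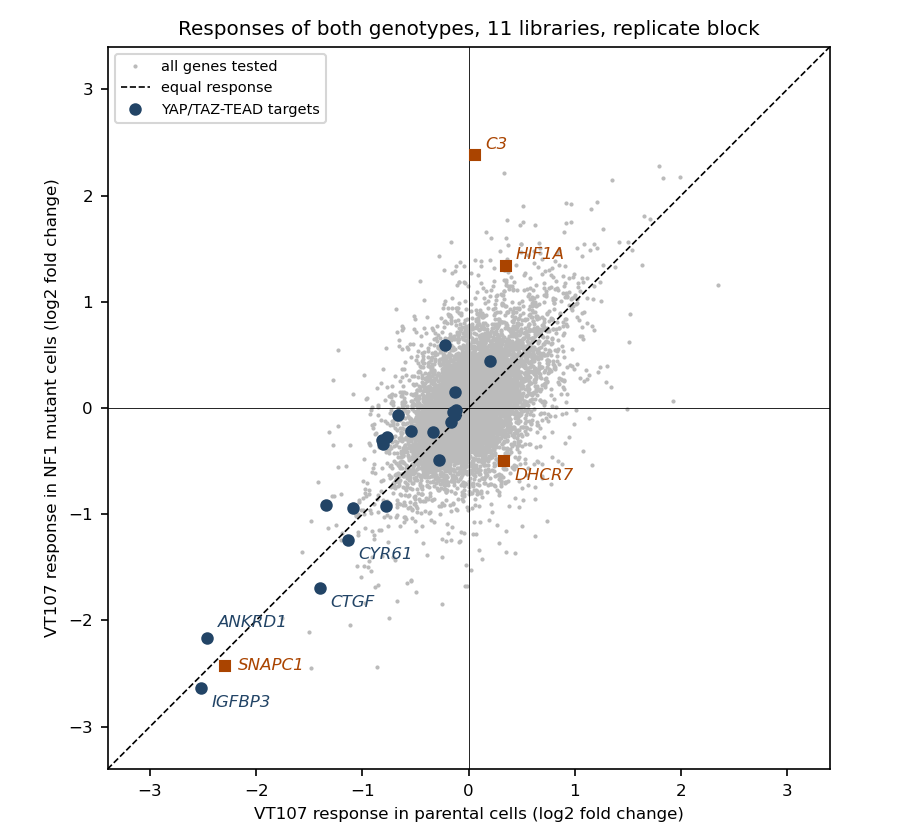
Log2 fold change between VT107 and DMSO in NF1 mutant cells (y axis) against that in parental cells (x axis) for all genes tested (grey points), from the 11 libraries with the replicate block in parental cells. Large points are the YAP/TAZ-TEAD targets, squares are other named genes and the dashed line marks equal responses. IGFBP3, SNAPC1, CTGF and CYR61 lie near the line, while C3 and HIF1A lie above it and DHCR7 below. The plotted range leaves out 2 genes.

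Canonical YAP/TAZ-TEAD targets fell with VT107 in parental and in NF1 mutant cells. In the blocked fit 10 of the 21 tested members of the list fell in parental cells and 6 in mutant cells, beside 2.28% and 0.715% of all genes. The 6 were CTGF, CYR61, ANKRD1, AMOTL2, IGFBP3 and TGFB2, and all of them were among the 10. The other 4 were F3, CRIM1, FJX1 and CCDC80. Without the block over 11 libraries 2 fell in each genotype, IGFBP3 and CTGF, and over 12 libraries none was called, with an unadjusted p under 0.05 for 6 in each. Called counts of the genotypes were not themselves compared by a test. As for all genes tested, 0 of 21 members were called for the interaction in any of the 3 fits. With the block, CRIM1 and PTPN14 had an unadjusted p under 0.05 for it, both with positive values.

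CTGF (ENSG00000118523, hg19 chr6:132269316-132272513), a secreted matrix protein of the CCN family, stood at 63.9, 70.9 and 94.2 CPM in parental DMSO libraries and at 30.8, 27.4 and 27.3 CPM with VT107. In NF1 mutant cells it stood at 35.9, 36.0 and 43.2 CPM in DMSO and at 4.0, 10.6 and 13.3 CPM with VT107. VT107 libraries were below DMSO libraries without overlap in both genotypes. The log2 fold change over 11 libraries was -1.42 (SE 0.18, adjusted p = 0.0374) in parental and -1.69 (SE 0.23, adjusted p = 0.0499) in mutant cells. The interaction was -0.62 (95% interval -1.63 to 0.39) over 12 libraries, -0.27 (-0.89 to 0.36) over 11 and -0.29 (-0.83 to 0.245) with the block. It was negative under each of the 35 alternatives, from -0.94 to -0.13, with adjusted p of 0.73 to 1.

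IGFBP3 (ENSG00000146674, hg19 chr7:45951850-45961473), which binds insulin-like growth factors, fell more steeply. Parental libraries stood at 110, 104 and 149 CPM in DMSO and at 24.6, 23.5 and 15.1 CPM with VT107. Mutant libraries stood at 120, 99.7 and 108 CPM in DMSO and at 2.0, 20.4 and 14.2 CPM with VT107, where the lowest was the replicate that stood apart. Its 11-library fold changes were -2.525 (SE 0.23, adjusted p = 0.00274) and -2.65 (SE 0.28, adjusted p = 0.0135). The interaction was -0.62 (-2.145 to 0.90) over 12 libraries and -0.12 (-0.87 to 0.62) over 11.

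CYR61 (ENSG00000142871, hg19 chr1:86046444-86049645), the other well-known CCN target, showed how far 1 library can move a value. It stood at 418, 465 and 482 CPM in parental DMSO libraries and at 243, 230 and 155 CPM with VT107. In mutant cells it stood at 460, 325 and 586 CPM in DMSO and at 2.0, 164 and 222 CPM with VT107, the first resting on 7 counts. Its interaction was -0.70 (-3.31 to 1.905) over 12 libraries, -0.12 (-0.88 to 0.63) without that replicate and -0.11 (-0.72 to 0.51) with the block. With the block it fell by 1.14 in parental cells (adjusted p = 0.00349) and by 1.25 in mutant cells (adjusted p = 0.00843) on the log2 scale.

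ANKRD1 (ENSG00000148677, hg19 chr10:92671853-92681033), a nuclear ankyrin repeat protein, stood at 147, 135 and 151 CPM in parental DMSO libraries and at 33.9, 51.5 and 7.86 CPM with VT107. In mutant cells it stood at 73.0, 55.8 and 53.5 CPM in DMSO and at 7.43, 16.8 and 9.73 CPM with VT107. The groups did not overlap in either genotype, but the sign of the interaction was not settled. It was -0.195 (-1.73 to 1.34) over 12 libraries, 0.04 (-1.61 to 1.69) over 11 and 0.30 (-0.92 to 1.52) with the block, and it was above 0 in 14 of 35 alternatives. AMOTL2, a scaffold that holds YAP in the cytoplasm and is itself a target, stood at 212, 182 and 179 CPM in parental DMSO libraries and at 122, 90.7 and 64.1 CPM with VT107. Its mutant libraries stood at 87.4, 75 and 92.6 CPM in DMSO and at 17.7, 42.3 and 46.6 CPM with VT107, again without overlap. Its interaction turned from -0.205 (-1.215 to 0.81) over 12 libraries to 0.12 (-0.56 to 0.79) over 11 and 0.15 (-0.28 to 0.59) with the block.

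**Figure D2:**
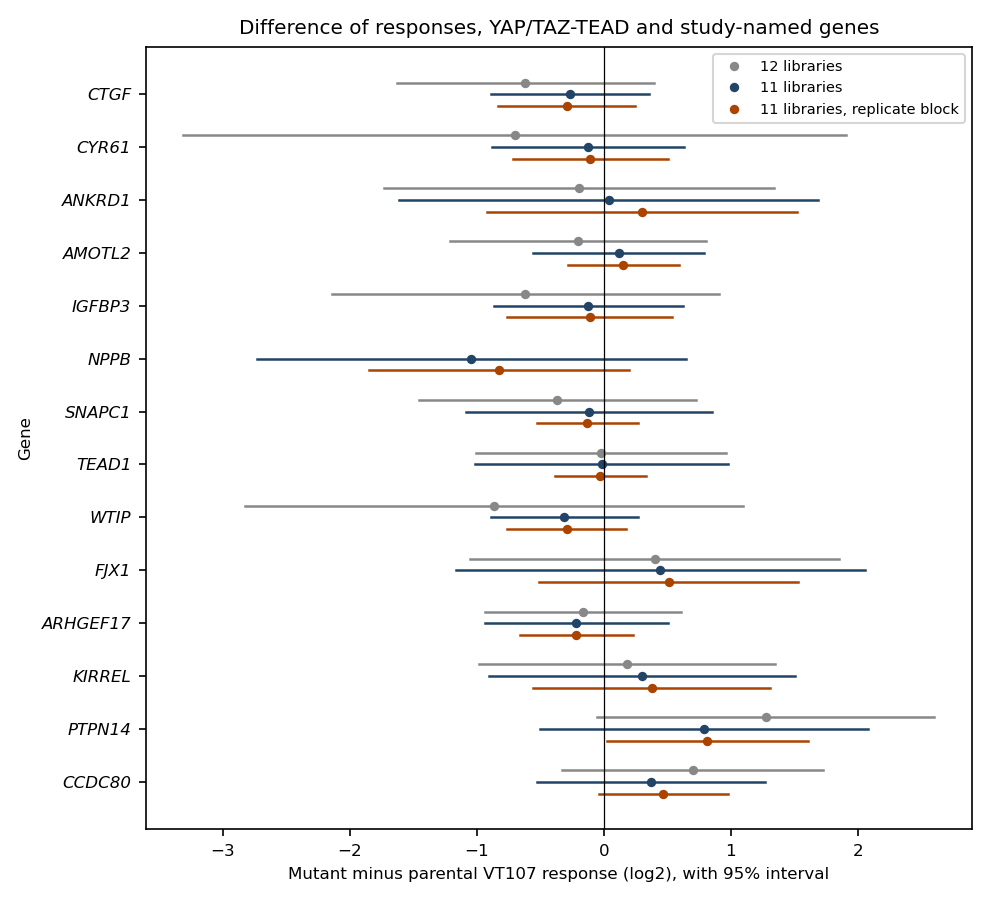
Mutant minus parental VT107 response (x axis, log2) of genes named in the study and of 2 further targets (y axis), with bars for the 95% interval, over 12 libraries (grey), 11 libraries (blue) and 11 libraries with the replicate block (orange). Every interval includes 0 except that of PTPN14 with the block (0.02 to 1.605), and CYR61 and WTIP have the widest intervals over 12 libraries. NPPB was not tested over 12 libraries.

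Among 12 genes that the study's text names, 9 fell in each genotype with the block, and 8 of these 9 fell in both. The study chose them on these samples. Its main result was that VT107 altered fewer genes in NF1 mutant than in parental cells, with select YAP/TAZ-sensitive genes partly restored. That result rests on counts of called genes and on gene sets, which were not compared by a test here. As examples that loss of NF1 did not restore under VT107 the study named CTGF, CYR61, ANKRD1, AMOTL2, TEAD1, WTIP, FJX1, ARHGEF17 and KIRREL. Neither the direction nor the interactions of these genes, here and above, are thus independent evidence. NPPB (ENSG00000120937, hg19 chr1:11917521-11918988), the precursor of B-type natriuretic peptide, stood at 122, 131 and 85.3 CPM in parental DMSO libraries and at 23.4, 22.9 and 4.0 CPM with VT107. Its mutant libraries stood at 117, 96.4 and 79.8 CPM in DMSO and at 0.571, 8.58 and 5.31 CPM with VT107, the first resting on 2 counts. The groups did not overlap. With the block its fold changes were -2.95 (SE 0.27, adjusted p = 9.45e-06) and -3.78 (SE 0.39, adjusted p = 3.45e-05), and the interaction was -0.83 (-1.85 to 0.20).

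SNAPC1 (ENSG00000023608, hg19 chr14:62229075-62263146), a subunit of the complex that starts small nuclear RNA transcription, stood at 427, 373 and 192 CPM in parental DMSO libraries and at 71.3, 86.6 and 41.9 CPM with VT107. In mutant cells it stood at 227, 259 and 234 CPM in DMSO and at 22.9, 42.7 and 46.9 CPM with VT107. Its interaction was -0.37 (-1.46 to 0.73) over 12 libraries and -0.13 (-0.53 to 0.27) with the block, 1 of the narrowest intervals among these genes. TEAD1, which encodes a target protein of VT107, fell with the block by 0.556 in parental cells (adjusted p = 0.00805) and by 0.586 in mutant cells (adjusted p = 0.0327), with an interaction of -0.03 (-0.39 to 0.33).

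WTIP, a LIM protein that restrains LATS kinases, fell by 0.73 in mutant cells with the block (adjusted p = 0.0424) and had -0.44 (adjusted p = 0.0867) in parental cells. Its VT107 levels in mutant cells were 0.857, 32.3 and 22.7 CPM, against 44.9, 48.3 and 45.7 CPM in DMSO, and 29.9, 23.8 and 21.5 against 33.5, 36.9 and 31.3 CPM in parental cells. The interaction was -0.87 (-2.83 to 1.10) over 12 libraries and -0.29 (-0.76 to 0.175) with the block. FJX1, a secreted kinase-like protein, had the reverse pattern of calls, with -0.81 in parental cells (adjusted p = 0.0366) and -0.30 in mutant cells (adjusted p = 0.819). Its mutant libraries rested on 8 to 18 counts, and its interaction of 0.51 had an interval of -0.51 to 1.53. For ARHGEF17, a guanine nucleotide exchange factor, and KIRREL, an adhesion protein, neither response was called in these fits, and with the block the interactions were -0.22 (-0.66 to 0.23) and 0.38 (-0.555 to 1.31).

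CRIM1, a transmembrane protein that binds BMPs, fell with the block by 0.77 in parental cells (adjusted p = 0.00571) and had -0.275 (adjusted p = 0.466) in mutant cells, with an interaction of 0.495 (SE 0.214, unadjusted p = 0.0338, adjusted p = 0.994). It is named for the count above, after its values were seen. PTPN14, a phosphatase that binds YAP, stood at 9.6, 7.11 and 14.4 CPM in parental DMSO libraries and at 7.36, 6.05 and 13.7 CPM with VT107, which overlapped. Its mutant libraries stood at 3.24, 2.43 and 3.19 CPM in DMSO and at 10.0, 4.29 and 4.72 CPM with VT107, all higher than in DMSO. The interaction was 1.27 (-0.06 to 2.60) over 12 libraries, 0.79 (-0.50 to 2.08) over 11 and 0.81 (0.02 to 1.605, unadjusted p = 0.0443, adjusted p = 0.994) with the block. CCDC80, a matrix protein, fell with the block by 0.80 in parental cells (adjusted p = 0.0102) and had -0.34 (adjusted p = 0.416) in mutant cells, with an interaction of 0.47 (-0.04 to 0.97). TEAD4 fell in parental cells with the block by 0.63 (adjusted p = 0.0105) and had -0.51 (adjusted p = 0.114) in mutant cells. Its mutant VT107 libraries stood at 117, 43.9 and 43.9 CPM against 55.7, 64.4 and 68.0 CPM in DMSO, and its interaction was 0.74 (-0.33 to 1.80) over 12 libraries and 0.12 (-0.30 to 0.54) with the block.

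HIF1A had the smallest p of the interaction in each of the 3 fits. HIF1A (ENSG00000100644, hg19 chr14:62162231-62214976) encodes the oxygen-regulated subunit of hypoxia-inducible factor. In parental cells it stood at 58.0, 48.6 and 65.7 CPM in DMSO and at 79.0, 67.3 and 71.7 CPM with VT107. In mutant cells it stood at 35.3, 35.5 and 31.2 CPM in DMSO and at 118, 88.7 and 84.0 CPM with VT107. VT107 libraries were above DMSO libraries without overlap in both genotypes, from a lower start and to a higher end in mutant cells. The mutant response was 1.51 (SE 0.21, adjusted p = 0.0433) over 12 libraries and 1.34 with the block (adjusted p = 3.45e-05), and the parental response was 0.34 (adjusted p = 1) and 0.35 (adjusted p = 0.101).

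The HIF1A interaction was 1.17 (0.53 to 1.81, unadjusted p = 0.00178, adjusted p = 1) over 12 libraries, 1.00 (0.51 to 1.497, unadjusted p = 0.000903, adjusted p = 1) over 11 and 0.99 (0.615 to 1.37, unadjusted p = 3.82e-05, adjusted p = 0.465) with the block. Over the 35 alternatives it ran from 0.84 to 1.28 and its adjusted p from 0.465 to 1. Naming a gene by its p in these libraries favours a large and steady value in refits of them. SNAPC1, its neighbour downstream on the same strand, moved the other way in both genotypes. RP11-618G20.1 overlaps both on the same strand and other RP11-618G20 transcripts overlap HIF1A on the opposite strand. Overlapping genes had 1946 counts in all against 6569 for HIF1A, and strand-specific counting is not given in the sources used here.

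**Figure D3:**
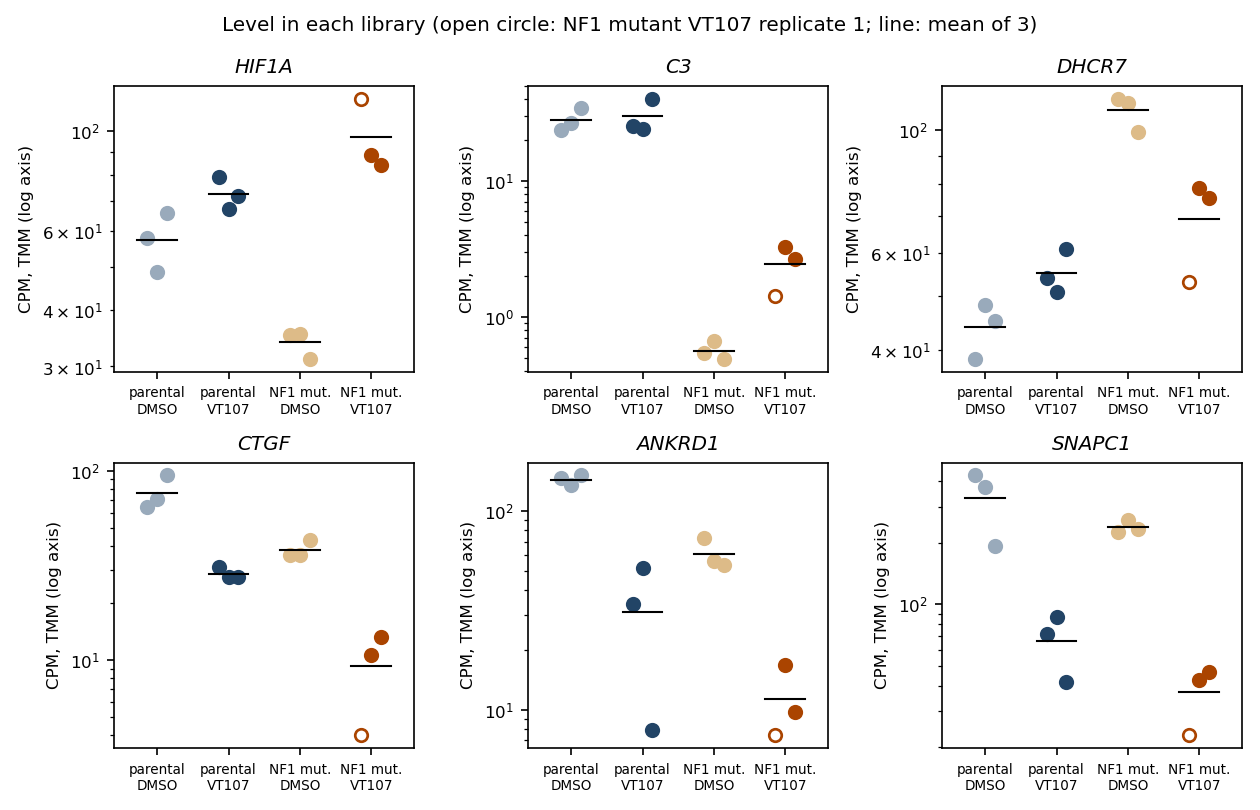
Normalised CPM of 6 genes in each of the 12 libraries (y axis, log scale), by genotype and treatment (x axis), with lines at the mean of 3 libraries and an open circle for VT107 replicate 1 of NF1 mutant cells. HIF1A rises further from DMSO to VT107 in mutant than in parental libraries, DHCR7 moves in opposite directions, and CTGF, ANKRD1 and SNAPC1 are lower with VT107 in both genotypes.

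C3 (ENSG00000125730, hg19 chr19:6677846-6730573), the central complement component, had the highest interaction among genes with a mean log2 CPM of at least 3 in the 3 fits. It stood at 23.8, 26.8 and 34.7 CPM in parental DMSO libraries and at 25.4, 24.4 and 40.3 CPM with VT107, which overlapped. In mutant cells it stood at 0.541, 0.662 and 0.491 CPM in DMSO and at 1.43, 3.27 and 2.65 CPM with VT107, from 2 to 3 counts and 5 to 16 counts a library. C3 thus reached the minimum mean only through its parental libraries, and its interaction rests on these few mutant counts. The interaction was 2.035 (0.82 to 3.25, unadjusted p = 0.00329) over 12 libraries and 2.32 (1.32 to 3.33, unadjusted p = 0.000149, adjusted p = 0.756) with the block. Every mutant library stood below every parental library. GPR108 overlaps C3, with 1062 counts in all against 2266.

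DHCR7 (ENSG00000172893, hg19 chr11:71139239-71163914), an enzyme of the final steps of cholesterol synthesis, had the smallest p among negative interactions of genes with a mean log2 CPM of at least 3. It stood at 38.5, 48.3 and 45.1 CPM in parental DMSO libraries and at 54.0, 50.8 and 60.8 CPM with VT107. In mutant cells it stood at 114, 112 and 99.2 CPM in DMSO and at 53.1, 78.5 and 75.5 CPM with VT107. The groups did not overlap in either genotype, and VT107 libraries were higher in parental and lower in mutant cells, though neither response was called. The interaction was -0.98 (-1.62 to -0.34, unadjusted p = 0.00588) over 12 libraries and -0.83 (-1.20 to -0.455, unadjusted p = 0.000226, adjusted p = 0.756) with the block. It ran from -1.08 to -0.71 over the 35 alternatives.

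The other genes named for a higher response in mutant cells over 12 libraries were NHS, SLC37A2, PIGM, OXCT2, LPIN2, ZNF263, ZNF121, ROR1, GDF11 and SMC1A, with interactions from 0.68 (SMC1A) to 1.63 (SLC37A2). SLC37A2, a transporter of sugar phosphates, stood at 6.13, 5.29 and 6.88 CPM in mutant DMSO libraries and at 42.6, 17.8 and 23.6 CPM with VT107. Its parental libraries stood at 4.43, 3.34 and 6.4 CPM in DMSO and at 5.65, 4.24 and 11 CPM with VT107, which overlapped. The interaction was 1.63 (0.33 to 2.92) over 12 libraries and 1.24 (0.55 to 1.93, unadjusted p = 0.00153) with the block, and the gene rose in mutant cells with the block (1.75, adjusted p = 0.00129). LPIN2, a phosphatidate phosphatase, and NHS had 0.95 (0.31 to 1.60) and 0.86 (0.23 to 1.48) with the block. SMC1A, a cohesin subunit, fell in parental cells with the block by 0.545 (adjusted p = 0.0144) and stood at 24.0, 26.2 and 28.7 CPM in mutant DMSO libraries and at 32.9, 28.4 and 26.2 CPM with VT107. ROR1, a WNT5A receptor, showed the same, with -0.70 (adjusted p = 0.0398) and 0.12 (adjusted p = 0.887). GDF11 overlaps SARNP on the opposite strand, which had 6829 counts against 1353, so its value is uncertain.

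The others named for a lower response in mutant cells over 12 libraries were PAM16, DLEU2, TMEM2, PRPS1, DTWD1, PDXDC1, CCDC97, EXOG, SS18L2 and LSM5, from -1.325 (DLEU2) to -0.69 (SS18L2). PAM16, a part of the mitochondrial protein import motor, stood at 17.0, 15.6 and 15.9 CPM in parental DMSO libraries and at 16.4, 18.1 and 15.9 CPM with VT107. Its mutant libraries stood at 21.6, 24.7 and 21.6 CPM in DMSO and at 11.1, 13.7 and 12.7 CPM with VT107, without overlap, and the interaction with the block was -0.83 (-1.335 to -0.325). PRPS1, which makes the sugar donor for nucleotide synthesis, fell with the block in parental cells by 0.498 (adjusted p = 0.0476) and in mutant cells by 1.16 (adjusted p = 0.00111), with an interaction of -0.66 (-1.10 to -0.22). DTWD1 rose in parental cells with the block (0.78, adjusted p = 0.0187) and had 0.13 (adjusted p = 0.882) in mutant cells. PDXDC1, SS18L2 and DLEU2 overlap genes that had 12123, 3402 and 734 counts against their own 2468, 2713 and 1028, and their values are uncertain.

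**Figure D4:**
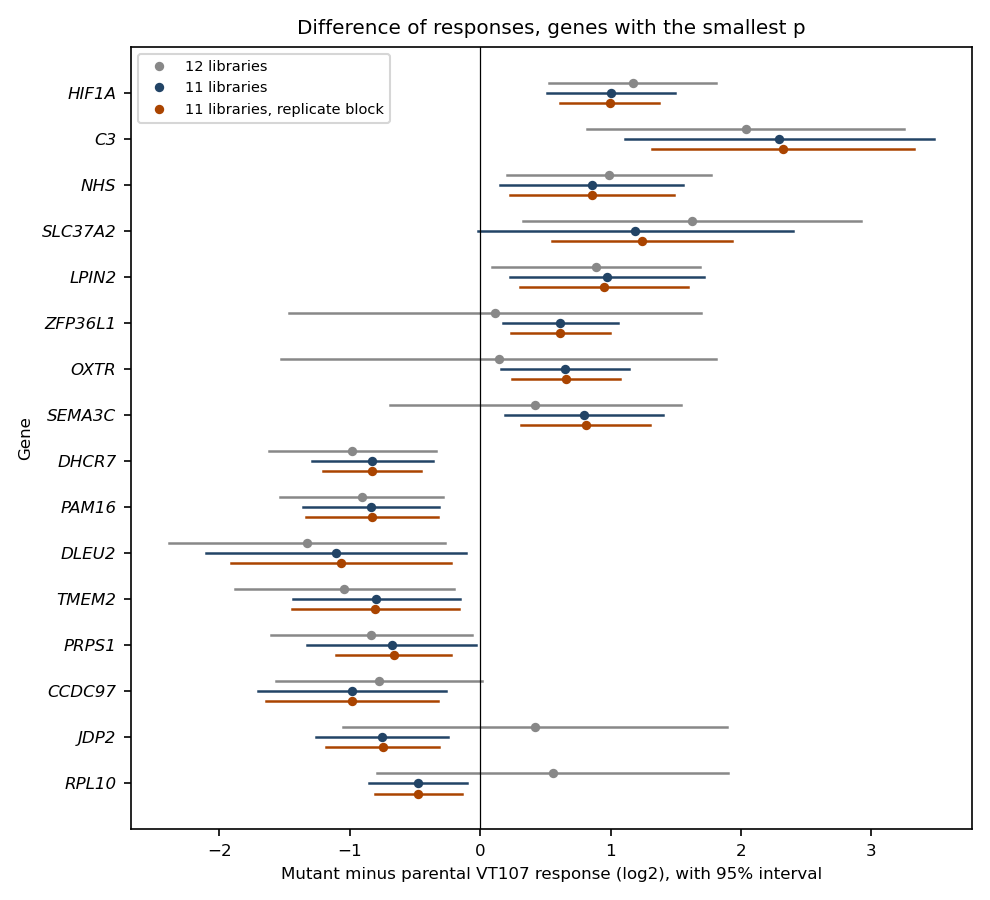
Mutant minus parental VT107 response (x axis, log2) of genes named for the smallest unadjusted p over 12 or over 11 libraries (y axis), with bars for the 95% interval, over 12 libraries (grey), 11 libraries (blue) and 11 libraries with the replicate block (orange). HIF1A, C3, DHCR7 and PAM16 lie on 1 side of 0 in the 3 fits, while ZFP36L1, OXTR, JDP2 and RPL10 move with the single library left out.

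Some genes were named only without VT107 replicate 1 of the mutant cells, and it decided their values. ZFP36L1, a protein that destabilises AU-rich mRNAs, stood at 114, 126 and 138 CPM in mutant DMSO libraries and at 23.7, 175 and 210 CPM with VT107. Its interaction was 0.12 (-1.46 to 1.69) over 12 libraries and 0.61 (0.17 to 1.05) over 11, and with the block it rose in mutant cells (0.61, adjusted p = 0.03). OXTR, the oxytocin receptor, stood at 29.1, 266 and 277 CPM in mutant VT107 libraries against 283, 211 and 287 CPM in DMSO. Its interaction went from 0.14 to 0.65 (0.16 to 1.14), and with the block it fell in parental cells by 0.60 (adjusted p = 0.016). SEMA3C, a guidance ligand, went from 0.42 to 0.80 (0.19 to 1.40).

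JDP2, a repressor of the AP-1 family, and RPL10, a ribosomal protein, turned sign. JDP2 stood at 110, 23.3 and 22.7 CPM in mutant VT107 libraries against 39.8, 50.3 and 37.8 CPM in DMSO, and its interaction was 0.42 over 12 libraries and -0.75 (-1.26 to -0.245) over 11. With the block JDP2 fell in mutant cells by 0.89 (adjusted p = 0.0106). RPL10 stood at 964, 251 and 218 CPM in mutant VT107 libraries against 288, 292 and 283 CPM in DMSO, and its interaction was 0.555 over 12 libraries and -0.47 (-0.85 to -0.10) over 11. KCNN4, a calcium-activated potassium channel, had -0.63 and -0.85 (-1.61 to -0.10).

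Genes that report MAPK output had no called interaction, which held for every gene tested and was not particular to them. Of 9 tested, PHLDA1, SPRY2 and DUSP6 rose in parental cells with the block and PHLDA1 and DUSP6 in mutant cells, beside 1.76% and 0.912% of all genes. They are named for this count, after their values were seen. DUSP6, a phosphatase that ERK induces and that switches ERK off, rose by 0.76 in parental and 1.13 in mutant cells (adjusted p = 0.00571 and 0.00236). For ETV5, an ERK-induced ETS factor, and DUSP4 the interactions with the block were -0.39 (-0.80 to 0.02) and 0.42 (-0.09 to 0.925). The list's median interaction was -0.147 over 12 libraries, 0.07 over 11 and 0.069 with the block, against 0.027, 0.006 and 0.017 for all genes tested.

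AP-1 factors had medians of -0.135, -0.11 and -0.04 over 10 genes tested. JUNB stood at 9.91, 7.94 and 6.63 CPM in mutant DMSO libraries and at 2.0, 7.76 and 6.49 CPM with VT107, and its interaction was -0.96 (-2.14 to 0.22) over 12 libraries and -0.59 (-1.34 to 0.15) with the block. For JUN and FOSL2 it was -0.16 (-0.565 to 0.25) and 0.09 (-0.31 to 0.50) with the block. RAS and RAF pathway components had medians of -0.037, 0.037 and 0.069, JAK-STAT3 genes -0.065, 0.122 and 0.106, and immediate early genes -0.088, -0.06 and -0.061. Hippo pathway components had 0.036, 0.093 and 0.089, with 5 of 32 lower in parental and 4 lower in mutant cells with the block, beside 2.28% and 0.715% of all genes, and 0 called in either genotype without it. The YAP/TAZ-TEAD list had -0.1, 0.107 and 0.152, and the genes named in the study -0.205, -0.119 and -0.109. Above 0 were 8 of 20 YAP/TAZ-TEAD interactions over 12 libraries and 16 of 21 in each fit of 11. Among all genes 5995 of 11432, 6192 of 12167 and 6405 of 12167 were. With the block the list's median response was -0.661 in parental and -0.275 in mutant cells, a difference that was not tested. Of the genes named in the study, 2 of 11 were above 0 over 12 libraries and 4 of 12 in each fit of 11.

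Genes of sterol and fatty acid synthesis had negative interactions more often than positive ones. Their median was -0.078 over 12 libraries, -0.135 over 11 and -0.136 with the block, and 20 of 24 were at or below 0 over 11 libraries, where 6192 of all 12167 genes were above 0. Over 12 libraries 10 of 24 were above 0, where 5995 of all 11432 genes were. With the block 4 of 24, among them DHCR7, HMGCS1 and MSMO1, had an unadjusted p under 0.05, beside 3.85% of all genes. As for all genes, 0 were called. In parental cells 4 rose with the block, among them INSIG1, MSMO1 and SCD, and in mutant cells SCD rose, beside 1.76% and 0.912% of all genes. HMGCS1 and MSMO1 make intermediates of cholesterol, and their interactions with the block were -0.515 (-0.895 to -0.135) and -0.50 (-0.95 to -0.055). MSMO1 stood at 27.6, 24.0 and 19.7 CPM in parental DMSO libraries and at 33.0, 36.1 and 32.8 CPM with VT107, without overlap. Its mutant libraries, at 33.0, 31.1 and 28.7 CPM in DMSO and 36.0, 29.6 and 33.9 CPM with VT107, overlapped.

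Hypoxia and glycolysis genes had a median of 0.33 over 12 libraries, 0.136 over 11 and 0.152 with the block. Above 0 were 15 of 23 over 12 libraries and 18 of 23 in each fit of 11. Among all genes 5995 of 11432, 6192 of 12167 and 6405 of 12167 were. The list includes HIF1A, which was named for its p. HIF1A was the only member called in mutant cells over 12 or 11 libraries, and NDRG1 rose and ADM fell there with the block. LDHA, which makes lactate, stood at 839, 860 and 712 CPM in mutant DMSO libraries and at 1780, 1090 and 819 CPM with VT107, which overlapped, and its interaction was 0.63 (-0.17 to 1.44) over 12 libraries and 0.26 (-0.16 to 0.69) with the block. For BNIP3, a mitophagy receptor, it was 0.55 (-0.265 to 1.37) and 0.36 (-0.22 to 0.94).

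Nuclear-encoded subunits of oxidative phosphorylation and cytosolic ribosomal proteins had small negative interactions in most members. Their medians were -0.246, -0.173 and -0.164, and -0.204, -0.247 and -0.173. Over 12 libraries 9 of 38 and 14 of 44 members were above 0, beside 5995 of 11432 among all genes. Over 11 libraries 3 of 38 and 5 of 44 members were above 0, beside 6192 of 12167 among all genes. The values of both lists rested on parental VT107 replicate 2. Without it the medians were -0.058 and 0.06 over the other 11 libraries, and -0.014 and 0.029 with VT107 replicate 1 of the mutant cells left out too. In parental VT107 libraries RPL37, a protein of the large ribosomal subunit, stood at 2960, 7430 and 1710 CPM, and COX6C, a subunit of cytochrome c oxidase, at 618, 1930 and 478 CPM. In DMSO they stood at 3070, 3090 and 2040 CPM and at 632, 627 and 494 CPM, so that 1 VT107 library was far above the rest. No member of either list was called in any response or for the interaction, for which no gene at all was called. With the block 1 of the 38 and 0 of the 44 had an unadjusted p under 0.05 for the interaction, beside 3.85% of all genes. A difference between groups of bulk libraries may come from fewer cells of a kind or from less of an mRNA per cell, which cannot be told apart here.

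Proliferation and ribosome assembly genes had negative median responses to VT107 in both genotypes. With the block 17 of 44 ribosome biogenesis genes fell in parental cells and 2 in mutant cells, 4 of 26 DNA replication genes and 1, and 4 of 24 mitotic genes and 1, beside 2.28% and 0.715% of all genes. None of them was called in either genotype over 12 or 11 libraries without the block. The difference between these counts was not tested. Their median responses were -0.403 and -0.305, -0.33 and -0.271, and -0.403 and -0.316 in parental and mutant cells, against -0.011 and 0.004 over all genes. The medians of the interaction with the block were 0.072, 0.08 and 0.058, and none of these genes was called for it, as none of all genes was. CDC20, which activates the anaphase-promoting complex, fell with the block in both genotypes, by 0.69 (adjusted p = 0.0129) and by 0.685 (adjusted p = 0.044). The mutant value leaves out VT107 replicate 1, which stood at 663 CPM against 363 to 431 CPM in DMSO, and over 12 libraries the mutant fold change was -0.04.

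The NF-kB and cytokine list had the highest median interaction of the 11-library fits, at 0.236 and 0.24, and 0.127 over 12 libraries. IL33, a nuclear alarmin, rose with the block by 2.11 in parental cells (adjusted p = 2.06e-06) and by 3.53 in mutant cells (adjusted p = 2.88e-06). It stood at 4.11, 4.65 and 63.0 CPM in parental DMSO libraries and at 22.8, 25.1 and 205 CPM with VT107, so that replicate 3 was far above the others in both. Mutant libraries stood at 1.8, 3.09 and 1.96 CPM in DMSO and at 10.9, 28 and 24.5 CPM with VT107, without overlap. The interaction was 1.42 (0.70 to 2.145, unadjusted p = 0.000692, adjusted p = 0.994) with the block but 1.39 (-1.99 to 4.77) over 12 libraries without it, and -1.05 where parental DMSO replicate 3 alone was left out.

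**Figure D5:**
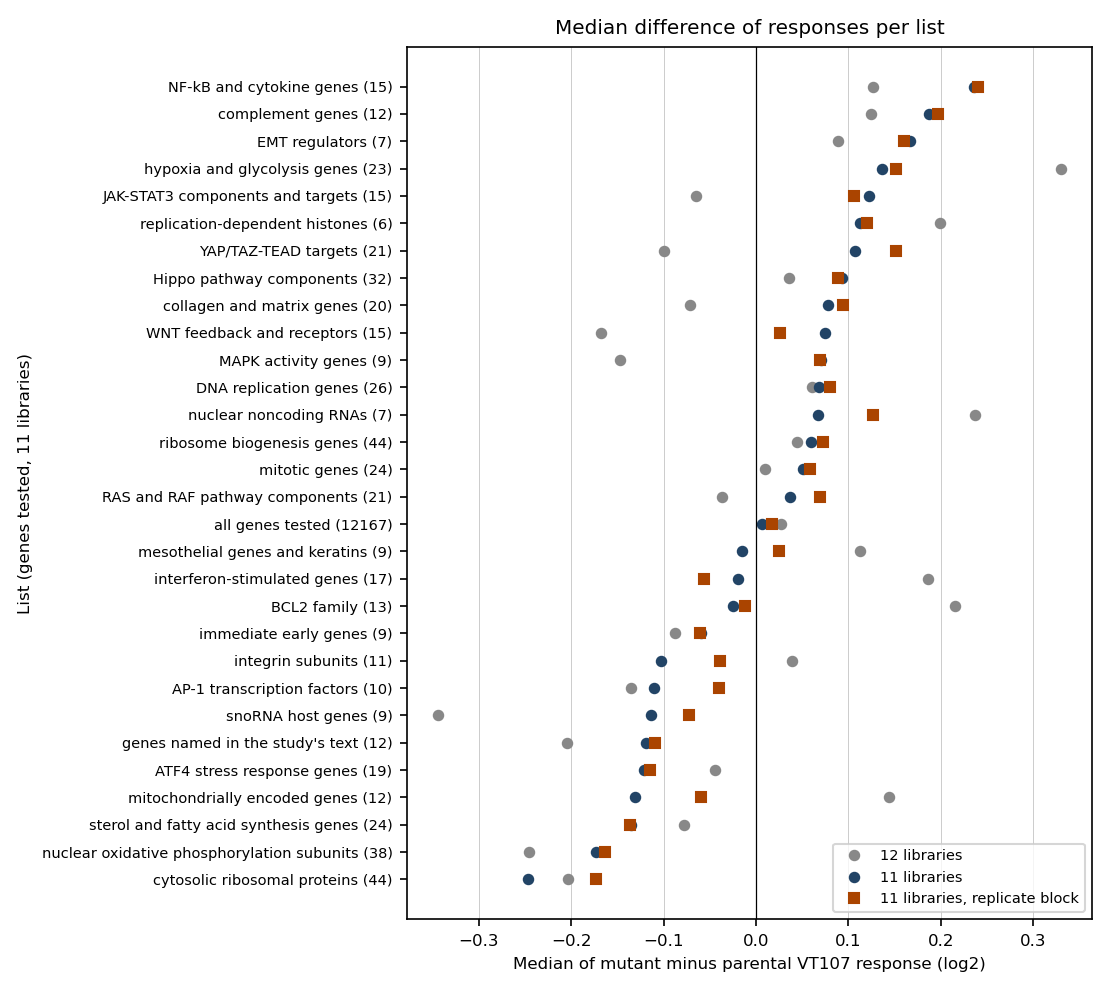
Median over the tested genes of each list (y axis, with the number tested over 11 libraries) of the mutant minus parental VT107 response (x axis, log2), over 12 libraries (grey), 11 libraries (blue) and 11 libraries with the replicate block (orange squares). All medians lie between -0.344 and 0.33, and several, such as those of the YAP/TAZ-TEAD targets and mitochondrially encoded genes, lie on opposite sides of 0 with and without the library left out.

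The remaining lists had medians, over 12 libraries, over 11 and with the block, of 0.125, 0.187 and 0.197 for complement genes, 0.186, -0.02 and -0.056 for interferon-stimulated genes, and -0.072, 0.078 and 0.094 for collagen and matrix genes. With the block COL6A1, COL6A3 and THBS2 rose and THBS1 fell in both genotypes. Integrin subunits had 0.039, -0.103 and -0.039, and with the block ITGA2 rose and ITGB2 fell in both genotypes. Parental ITGB2 levels overlapped, at 261, 266 and 30.2 CPM in DMSO and at 120, 142 and 9.02 CPM with VT107. EMT regulators had 0.089, 0.167 and 0.16, mesothelial genes and keratins 0.113, -0.015 and 0.025, and WNT feedback genes and receptors -0.168, 0.075 and 0.026. ATF4 stress response genes had -0.044, -0.121 and -0.115. SLC7A5 and SLC3A2, the subunits of an amino acid transporter, fell in both genotypes with the block. Over 12 or 11 libraries without it, no collagen, integrin or ATF4 list member was called in either genotype. Among all genes with the block, 1.76% rose and 2.28% fell in parental cells, and 0.912% rose and 0.715% fell in mutant cells.

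Genes of the BCL2 family had 0.215, -0.025 and -0.012, nuclear noncoding RNAs 0.237, 0.067 and 0.127, snoRNA host genes -0.344, -0.114 and -0.073, mitochondrially encoded genes 0.144, -0.131 and -0.06, and replication-dependent histones 0.199, 0.113 and 0.12. The medians of snoRNA hosts, noncoding RNAs, mitochondrially encoded genes and the BCL2 family moved further with the 1 library left out than that of all genes. CD68, the only leukocyte marker tested, had an interaction of 0.531, 0.106 and 0.13. Summed leukocyte marker levels, mostly CD68, were 2.9 to 14.8 CPM in parental DMSO, 4.96 to 24.4 CPM in parental VT107, 8.11 to 9.93 CPM in mutant DMSO and 14.3 to 30 CPM in mutant VT107 libraries, and their part in the results was not tested. No endothelial marker was tested.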

How the data were processed

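Raw read counts per gene were deposited by the authors as 1 table of 31017 rows for H2052 cells. Per the labels, reads were demultiplexed with bcl2fastq (2.20.0.422 in the submitters' processing notes) and the build was hg19, while for the aligner, counter, annotation and strand setting the sources used here give nothing. The 63 rows that repeat an ID were summed, which left 30954 IDs. The count columns of 12 libraries were mapped to their labels, and libraries of H226 cells were not analysed here.

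Genes were kept where each library had 0.5 CPM or more (11432 of them for 12 libraries, 12167 for 11), scaled by TMM and tested with edgeR 4.0.16 (quasi-likelihood test, R 4.3.3) with 1 mean per group. The interaction and each genotype's response are contrasts of these means, and p-values were adjusted by the Benjamini-Hochberg method over all genes tested, with a threshold of 0.05. Standard errors were obtained from the fold change and the F statistic, and intervals are 95% intervals that cover the spread between libraries only. DESeq2 1.42.0, limma-voom 3.58.1, other scalings, filters and blocks, thinning and leaving out each library were the alternatives. Fits were tested on simulated data.

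Replicate numbers were checked by the correlation of deviations from group means. Parental libraries of equal number gave 0.654, 0.532 and 0.822 and were taken as paired, although numbers 1 and 2 also correlated with each other at 0.552 and 0.642. Mutant libraries gave -0.17, -0.217 and 0.161 and were not taken as paired. Their VT107 deviations were from a mean that includes replicate 1, which stood apart. The check was not repeated without that library, so it cannot settle pairing in mutant cells. The fit of 11 libraries with the block was added after the data were seen.

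Genes were named by rule: the 12 smallest unadjusted p-values in each direction among genes with a mean log2 CPM of at least 3, over 12 libraries and over 11, up to 6 members of a list by p, genes that the study's text names, and NF1. Of these, those on which a statement turns are described. The groups, gene lists and rule were chosen with earlier results of these data known. Promoters came from RefSeq (GRCh38.p14), matched by symbol, and gene positions are those of hg19.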

Additional observations from a re-analysis of the deposited data

How the results depend on the processing

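The interaction called 0 genes in the fit of 12 libraries and under each alternative, so its adjusted calls cannot tell the settings apart. At an unadjusted p under 0.05 the number ran from 49 to 521 when 1 library was left out, with 521 without VT107 replicate 2 of the mutant cells. With no filter 20323 genes were tested and the number was 157, a filter on 10 counts gave 52, RLE factors 83 and upper quartile factors 75. Responses within a genotype depended on the setting, and the cause was not tested. In parental cells, where 0 genes were called over 12 libraries, DESeq2 called 12, voomWithQualityWeights 124, and leaving out 1 library 0 to 3. Without VT107 replicate 1 of the mutant cells, parental calls were 60 by DESeq2, 4 by limma-voom, 101 by voomWithQualityWeights, 1 without parental VT107 replicate 2 as well, and 86 without both parental libraries numbered 3 as well. In mutant cells, where 3 were called, RLE factors, the 10-count filter, limma-voom and thinning gave 0, DESeq2 33, voomWithQualityWeights 147, leaving out 1 library 0 to 5, and leaving out both parental libraries numbered 3 gave 9. Without VT107 replicate 1, mutant calls were 48 by DESeq2, 0 by limma-voom, 108 by voomWithQualityWeights, 1 without parental VT107 replicate 2 as well, and 303 without both parental libraries numbered 3 as well.

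The replicate block was added in parental cells, within each genotype, shared by both genotypes, or with parental number 3 alone set apart. Over 12 libraries these gave interaction calls of 0 and mutant calls of 7, 4, 0 and 9, and the last gave 2 parental calls. Without VT107 replicate 1 of the mutant cells they gave parental calls of 491, 377, 13 and 560 and mutant calls of 198, 109, 10 and 233. With libraries thinned too, the block in parental cells gave 263 and 227. It called no interaction in any of these fits. The NF1 difference in DMSO ran from -2.05 to -1.62 when 1 library was left out, and missed the threshold in 5 of these fits.

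The following interactions changed sign, and the cause was not tested. AMOTL2 ran from -0.442 to 0.116 when 1 library was left out, ANKRD1 from -0.652 to 0.385, ARHGEF17 from -0.312 to 0.011, KIRREL from -0.134 to 0.64, NF1 from -0.227 to 0.333, TEAD1 from -0.28 to 0.257 and IL33 from -1.051 to 3.207. Without VT107 replicate 1 of the mutant cells, AMOTL2 was 0.152, 0.180, 0.237 and 0.145 under the blocks in the order above, 0.226 with the first and thinning, 0.103 by DESeq2, 0.158 by limma-voom, and 0.086 without parental VT107 replicate 2 as well. In the same order ANKRD1 was 0.300, 0.42, 0.251, 0.275, 0.116, 0.014, 0.419 and 0.597. Over 12 libraries ANKRD1 was 0.125, 0.070 and 0.095 with the block in parental cells, within each genotype or for number 3 alone, and 0.141 by limma-voom. TEAD1 was 0.004 by DESeq2 and by RLE factors, 0.008 by voomWithQualityWeights, 0.069 with thinning, 0.007 without both parental libraries numbered 3, and, without VT107 replicate 1 of the mutant cells too, 0.005. Without that replicate TEAD1 was also 0.003 without parental VT107 replicate 2, 0.083 with the block in parental cells and thinning, and 0.108 with the shared block, and SNAPC1 was 0.096 without parental VT107 replicate 2. TEAD4 was -0.011 without both parental libraries numbered 3 and that replicate. JDP2 and RPL10, named over 11 libraries, were 0.424 and 0.555 over 12. HIF1A, C3 and DHCR7 kept their sign under the alternatives that tested them. They were named for small p-values in these same libraries, which favours a kept sign and a large size. Their steadiness is thus not independent evidence. A depth of 3285363 to 5489092 counts limits the mutant cells more than the parental cells.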
